A study of Mus musculus with 12 samples.

Results

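Levels of 10 genes linked to FOXO transcription factors or to the resting state of lymphocytes were measured in unstimulated and stimulated mouse natural killer (NK) cells. The genes are Foxo1, Foxo3 and Foxp1 (forkhead factors), Txnip, Pik3ip1 and Tsc22d3 (brakes on metabolism and signalling), Btg1, Btg2 and Tob1 (antiproliferative proteins) and Il7r (a cytokine receptor). The genes were chosen with earlier results of these data known. They were taken by symbol, and all 10 were found among the 55487 features of the deposited table. All 10 also passed the filter on low values, which kept the 12364 genes with a log2 CPM (CPM being a gene's reads scaled to a common library size) above 0 in at least 4 of the 12 samples.

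FOXO proteins bind DNA through a forkhead domain and are held out of the nucleus when PI3K and AKT kinases are active downstream of growth factor and antigen receptors. When that signalling is low they enter the nucleus and turn on genes that slow growth, limit glucose uptake, dampen PI3K itself and support survival on IL-7. NK cells are innate lymphocytes that kill target cells and secrete interferon gamma, and in lymphocytes FOXO factors are known for maintaining quiescence, homing and survival.

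NK cells of strain B6.129S4-Ifngtm3.1Lky/J with genotype mut/mut, whose interferon gamma gene Ifng carries a yellow fluorescent protein (YFP) reporter, were primed with IL-15 in all groups. The titles add "HD" to IL-15, which the labels do not explain. The 3 groups were unstimulated cells, cells stimulated with anti-NK1.1 (an antibody to an activating surface receptor of NK cells) for 6 hours that lacked reporter signal (YFP-), and cells from the same stimulation with reporter signal (YFP+). Each group held 4 samples, called f2, m2, m3 and m4 after their labels (F, M2, M3 and M4 in the titles). The labels give neither the organ and age of the mice nor the sorting method, and they do not say that samples came from separate mice, so p-values measure the spread between these samples, which may be technical. The YFP- and YFP+ samples are 2 fractions of stimulated cells chosen by the reporter, and no unsorted stimulated sample was analysed here. The labels give no time for the unstimulated samples. Below, the first step means YFP- minus unstimulated and the second YFP+ minus YFP-, which compare groups and not times.

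Library totals ran from 32.1 to 54.2 M reads, so that 3 reads, taken as the smallest level that could be shown, corresponded to 0.0553 to 0.0933 CPM. Such floors cover counting error only. Ifng averaged 3.92 CPM in unstimulated, 45.8 CPM in YFP- and 329 CPM in YFP+ samples, in the order of the labels, and YFP- samples therefore held Ifng RNA. Features resembling ribosomal RNA took 27.4 to 35.3% of reads in unstimulated samples (mean 30.7%). The share was 15.9 to 30.3% in YFP- samples (mean 21.2%) and 13.7 to 29.8% in YFP+ samples (mean 20.7%). Among stimulated samples the m3 libraries had the highest shares, 30.3% in YFP- and 29.8% in YFP+. NK cell markers summed to 9828 to 16619 CPM per sample. Of the T cell markers, Cd4, Cd8a and Cd8b1 were each at most 0.193 CPM and Cd3e was at 0 to 1.49 CPM, whereas Cd3g was at 11.7 to 79.4 CPM, Cd3d at 7.25 to 25.9 CPM and Trac at 6.83 to 54.5 CPM. These are bulk samples, in which fewer cells of a type and less RNA per cell cannot be told apart.

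Because the genes are grouped here by their link to FOXO, the 250 bases before each annotated start were searched for the 7-base core of the FOXO binding motif, GTAAACA or TGTTTAC on the other strand. RefSeq (build GRCm38.p6) gave 14 such windows for the 10 genes, and 2 windows, those of Txnip and Btg1, held the core. Over all 32851 windows of the same length, 3.17% held it. The shorter forkhead core GTAAAC, which overlaps the first motif, was in the same 2 genes and in 6.92% of all windows. The E-box CACGTG was in windows of 0 of the 10 genes and in 6.02% of all windows. Only exact matches were searched, so imperfect forms of these motifs would be missed. Both windows with the FOXO core are shown 5′ to 3′ on the gene's strand, with the core in capitals, since the levels of their genes moved in different ways after stimulation. A match describes the letters only.
Txnip promoter, chr3:96557707-96557956, plus strand: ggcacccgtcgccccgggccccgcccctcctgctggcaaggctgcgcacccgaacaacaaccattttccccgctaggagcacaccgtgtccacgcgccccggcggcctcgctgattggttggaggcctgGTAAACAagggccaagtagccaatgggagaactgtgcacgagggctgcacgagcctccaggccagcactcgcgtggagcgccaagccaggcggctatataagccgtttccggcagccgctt
Btg1 promoter, chr10:96616751-96617000, plus strand: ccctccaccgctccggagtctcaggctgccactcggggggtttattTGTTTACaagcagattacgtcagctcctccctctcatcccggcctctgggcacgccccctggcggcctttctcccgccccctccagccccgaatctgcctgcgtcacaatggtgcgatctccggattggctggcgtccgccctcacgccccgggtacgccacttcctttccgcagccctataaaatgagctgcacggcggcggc
The core began 121 bases before the start of Txnip and 204 bases before the start of Btg1.

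Differences between groups were tested with limma across all 12364 genes, and a gene was called at a Benjamini-Hochberg adjusted p under 0.05. Because the 10 genes were chosen with earlier results of these data known, counts beside shares of all genes are descriptions and test no excess. Stimulated YFP- cells differed from unstimulated cells in 7 of the 10 genes, where 51.1% of all genes tested were called. The 3 genes Foxp1, Btg1 and Btg2 rose, a direction called for 30.2% of all genes, and the 4 genes Foxo3, Txnip, Pik3ip1 and Tob1 fell, a direction called for 20.9%. YFP+ cells differed from YFP- cells in 7 of the 10, where 21.8% of all genes were called. All 7 of these (Foxo3, Txnip, Pik3ip1, Tsc22d3, Btg1, Btg2 and Il7r) were lower in YFP+, a direction called for 18.5% of all genes, and 0 of the 10 were called higher, against 3.28% of all genes. Il7r passed the filter only through the groups in which it was high, so its own call supports no count. YFP+ cells differed from unstimulated cells in 8 of the 10, where 60.8% of all genes were called. Foxp1 was then the only called gene of the 10 that was higher (27.5% of all genes were), and the 7 genes Foxo1, Foxo3, Txnip, Pik3ip1, Tsc22d3, Tob1 and Il7r were lower (33.3% of all genes).

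The median log2 difference of the 10 genes was -0.35 for YFP- minus unstimulated, beside 0.14 over all genes tested. It was -0.85 for YFP+ minus YFP-, beside -0.19, and -1.29 for YFP+ minus unstimulated, beside -0.03. The samples of both groups did not overlap in 5 of the 10 genes for YFP- and unstimulated (52.7% of all genes tested), 6 for YFP+ and YFP- (22.1%) and 9 for YFP+ and unstimulated (54.7%). Il7r, which passed the filter only through unstimulated and YFP- samples, is among the 6 and the 9 and supports neither count. The medians include it as well. The 3 comparisons share their groups, so their values stand side by side and are not independent of each other. Because the all-gene median for YFP+ minus YFP- depended on scaling, moving from -0.19 as deposited to 0.07 when each sample was centred on its median, small differences are also given on the centred scale. The share of ribosomal RNA-like reads, highest on average in unstimulated samples, also affected the all-gene medians. With these features left out, they were -0.06 for YFP- minus unstimulated and -0.23 for YFP+ minus unstimulated.

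**Figure D1:**
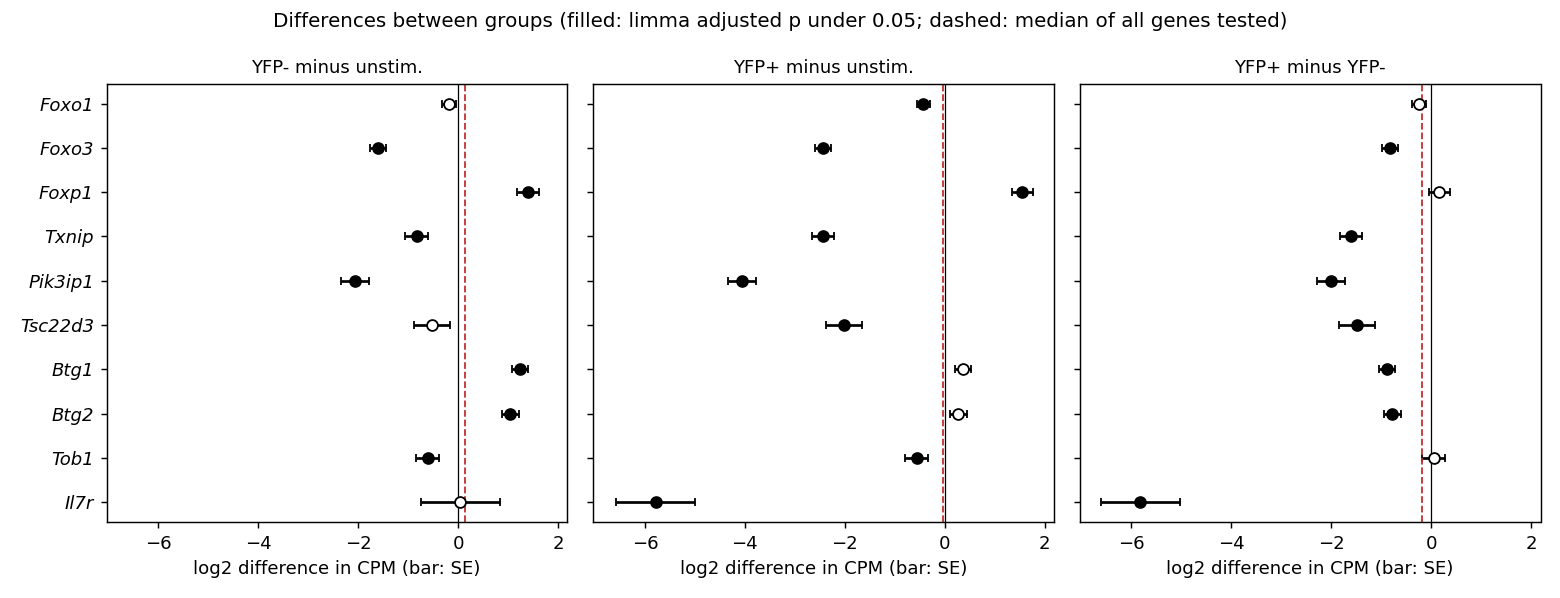
Differences in log2 CPM between groups for each of the 10 genes (x axis; bars are standard errors from limma, 4 samples per group, filled points have an adjusted p under 0.05), with the median of all genes tested as a dashed line. Il7r, at -5.83 in YFP+ minus YFP-, lies far from the other genes, and Foxp1, Btg1 and Btg2 lie to the right of 0 in YFP- minus unstimulated.

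The forkhead factors did not move as a group, since Foxo3 fell at both steps, Foxp1 rose with stimulation and Foxo1 changed little. FOXO3 and FOXO1 are the FOXO proteins best studied in lymphocytes, and FOXP1 is a forkhead repressor that keeps naive T cells quiescent. Foxo3 (ENSMUSG00000048756, GRCm38 chromosome 10, 42181841 to 42276755, minus strand) was at 12.8, 12.4, 11.3 and 15.7 CPM in the unstimulated samples f2, m2, m3 and m4. It was at 4.47, 3.79, 4.05 and 4.69 CPM in the YFP- samples, and at 2.003, 2.47, 2.74 and 2.43 CPM in the YFP+ samples. Every unstimulated sample was above every YFP- sample, and every YFP- sample was above every YFP+ sample.

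Foxo3 fell by 1.61 in log2 from unstimulated to YFP- samples (SE 0.16, limma adjusted p = 3.51e-06), which is 3.05-fold. YFP+ samples were lower than YFP- samples by a further 1.77-fold (log2 difference -0.82, SE 0.16, limma adjusted p = 0.00252). Relative to unstimulated samples the level in YFP+ was 5.39-fold lower (log2 difference -2.43, limma adjusted p = 3.35e-08). The step between the stimulated groups was -0.56 on the centred scale and still called, and it was -0.46 and not called after quantile normalization.

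Foxo1 (ENSMUSG00000044167, chromosome 3, 52268336 to 52353221, plus strand) was at 28.1, 29.4, 30.5 and 31.1 CPM in unstimulated samples f2, m2, m3 and m4. In the same order it was at 27.8, 29.8, 21.04 and 27.4 CPM in YFP- samples and at 22.2, 23.5, 19.0 and 24.1 CPM in YFP+ samples. Sample m3 was lowest in both stimulated groups, and the YFP- samples overlapped both other groups. The log2 difference was -0.18 for YFP- minus unstimulated (limma adjusted p = 0.285) and -0.25 for YFP+ minus YFP- (limma adjusted p = 0.208), and neither passed the threshold. Over the whole range from unstimulated to YFP+, Foxo1 fell by 0.43 (SE 0.13, limma adjusted p = 0.0135).

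These small Foxo1 values depended on scaling and on single libraries. With features resembling ribosomal RNA left out of the totals, YFP- minus unstimulated was -0.36 and was called, as it was after centring (-0.32) and quantile normalization (-0.37). Without the YFP- sample m3 the same difference was -0.07. YFP+ minus YFP- was 0.01 after centring. The fall from unstimulated to YFP+ was not called without label m4, at -0.45.

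Foxp1 (ENSMUSG00000030067, chromosome 6, 98925338 to 99522721, minus strand) went the other way. It was at 47.0, 49.9, 43.8 and 38.8 CPM in unstimulated samples f2, m2, m3 and m4, at 127, 141, 80.8 and 134 CPM in YFP- samples and at 171, 155, 89.8 and 125 CPM in YFP+ samples. The stimulated samples were all above the unstimulated ones, the m3 samples were the lowest of both stimulated groups, and the YFP- and YFP+ samples overlapped. Foxp1 rose by 1.40 in log2 in YFP- (SE 0.21, limma adjusted p = 0.00011) and by 1.56 in YFP+ (limma adjusted p = 2.36e-05), both relative to unstimulated samples. The 2 stimulated groups differed by 0.16 (SE 0.21, limma adjusted p = 0.637), or -0.03 without the YFP- sample m3. The part of the high share of ribosomal RNA-like reads in the m3 libraries was not tested for Foxp1.

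**Figure D2:**
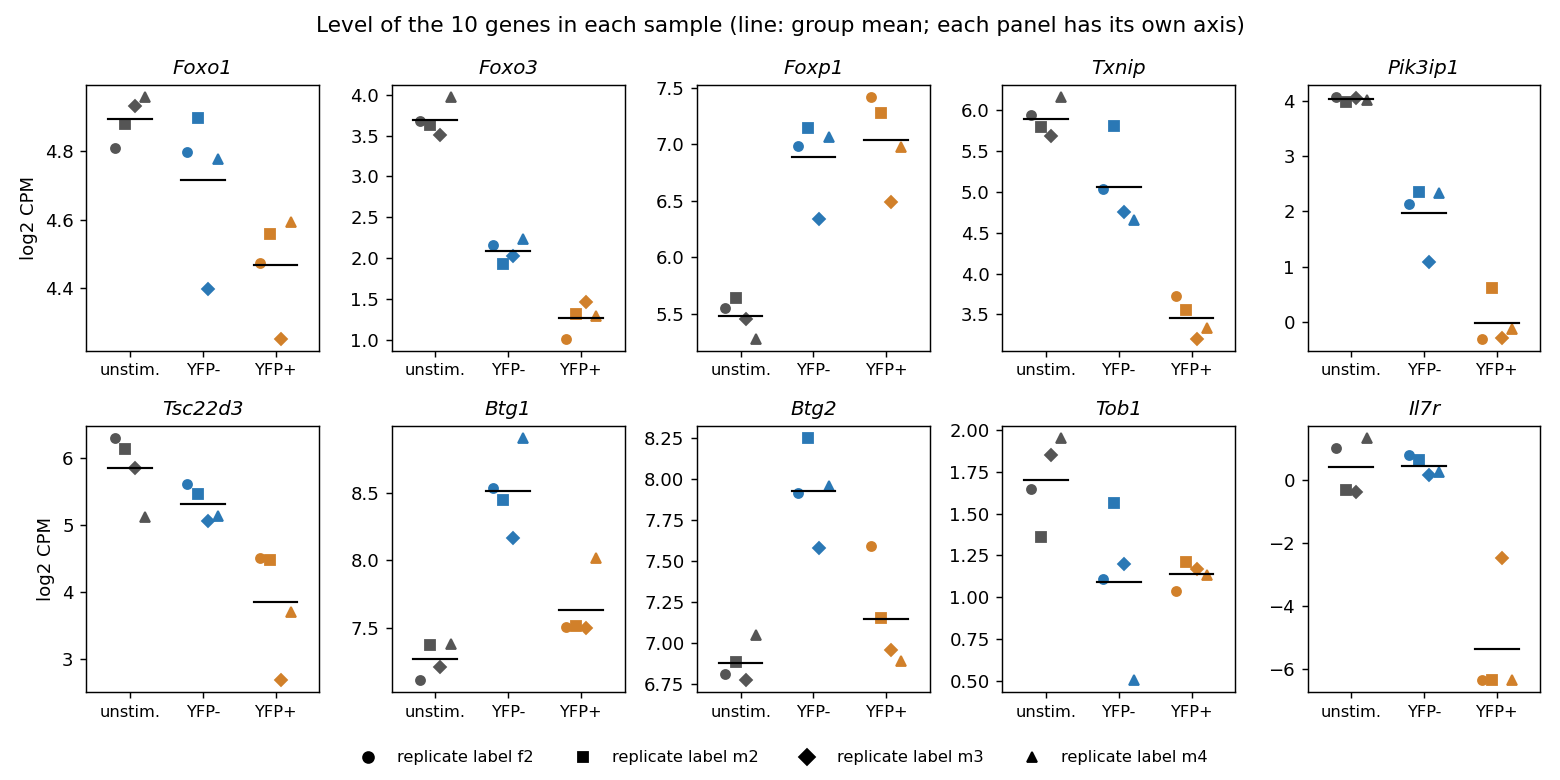
Level of each of the 10 genes in log2 CPM (y axis, a separate scale in each panel) in every sample, by group (unstimulated, YFP-, YFP+; point shapes give the replicate label, lines are group means). Foxo3, Txnip and Pik3ip1 step down from group to group, Btg1 and Btg2 peak in YFP-, and Il7r drops in YFP+, where 3 samples held 0 reads.

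Txnip, Pik3ip1 and Tsc22d3, the 3 brakes on metabolism and signalling, were all lower in YFP+ than in YFP- samples and lower in YFP+ than in unstimulated samples. Txnip encodes thioredoxin-interacting protein, an arrestin-domain protein that binds thioredoxin and lowers glucose uptake. Txnip (ENSMUSG00000038393, chromosome 3, 96557957 to 96561883, plus strand) was at 61.4, 55.4, 51.5 and 71.6 CPM in unstimulated samples f2, m2, m3 and m4. It was at 32.9, 55.9, 27.1 and 25.2 CPM in YFP- samples, and at 13.2, 11.7, 9.20 and 10.1 CPM in YFP+ samples. The YFP- sample m2 lay within the unstimulated range while the other three were below it, and all YFP+ samples were below all others.

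Txnip fell by 0.83 in log2 from unstimulated to YFP- (SE 0.22, limma adjusted p = 0.00721). Without label m4 in every group this difference was -0.60 and was no longer called, and it was also not called when no filter on low values was applied. YFP+ was 3.06-fold lower than YFP- (log2 difference -1.61, SE 0.22, limma adjusted p = 0.000246) and 5.43-fold lower than unstimulated (log2 difference -2.44, limma adjusted p = 6.51e-07). The strand of the reads was not given, and the antisense gene Gm15441 shares 606 exonic bases with Txnip, so their reads cannot be told apart there. Gm15441 itself was listed at no more than 2.73 log2 CPM, while Txnip averaged 3.45 to 5.90.

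Pik3ip1 encodes a transmembrane protein that binds the catalytic subunit of PI3K and inhibits it. It (ENSMUSG00000034614, chromosome 11, 3330401 to 3342971, plus strand) was at 16.8, 15.7, 16.6 and 16.2 CPM in unstimulated samples f2, m2, m3 and m4. The YFP- samples were at 4.36, 5.11, 2.10 and 4.996 CPM and the YFP+ samples at 0.797, 1.51, 0.801 and 0.902 CPM, the latter from 39, 82, 29 and 29 reads. The groups did not overlap, and the unstimulated samples were within a narrow band (SD 0.04 in log2 CPM, against 0.60 in YFP-).

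Pik3ip1 fell by 2.06 in log2 in YFP- relative to unstimulated samples (SE 0.28, limma adjusted p = 5.06e-05), or 4.17-fold. YFP+ was lower than YFP- by 4.01-fold (log2 difference -2.002, SE 0.28, limma adjusted p = 0.000264). Over both steps the level was 16.7-fold lower (log2 difference -4.06, limma adjusted p = 5.29e-08), the largest called difference of the 10 genes after Il7r. With 1 CPM added to each value, which damps low levels, it was -3.13.

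Tsc22d3 encodes GILZ, a leucine zipper protein induced by glucocorticoids and by FOXO factors. It (ENSMUSG00000031431, chromosome X, 140539528 to 140600659, minus strand) was at 78.6, 70.5, 57.7 and 34.7 CPM in unstimulated samples f2, m2, m3 and m4, at 49.1, 44.3, 33.2 and 35.2 CPM in YFP- samples and at 22.7, 22.3, 6.41 and 12.97 CPM in YFP+ samples. Here the unstimulated sample m4 was as low as the YFP- samples, and samples m3 and m4 were the lowest of YFP+. The difference between YFP- and unstimulated samples did not pass the threshold (log2 difference -0.53, SE 0.36, limma adjusted p = 0.236). YFP+ was lower than YFP- by 2.79-fold (log2 difference -1.48, SE 0.36, limma adjusted p = 0.01) and lower than unstimulated by 4.02-fold (log2 difference -2.01, limma adjusted p = 0.000275). The call between the stimulated groups was lost when no filter on low values was applied, and it was kept under the 4 other scalings.

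Btg1 and Btg2 had another order, with the highest levels in YFP- cells. BTG and TOB proteins recruit the CCR4-NOT deadenylase to mRNA and restrain proliferation. Btg1 (ENSMUSG00000036478, chromosome 10, 96617006 to 96622809, plus strand) was at 138, 165, 148 and 167 CPM in unstimulated samples f2, m2, m3 and m4. It was at 371, 348, 287 and 479 CPM in YFP- samples and at 182, 183, 181 and 259 CPM in YFP+ samples. No 2 groups overlapped, and within YFP+ sample m4 stood apart from the other three.

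Btg1 rose by 1.25 in log2 in YFP- relative to unstimulated samples (SE 0.16, limma adjusted p = 3.41e-05), and YFP+ was lower than YFP- by 0.88 (log2 difference -0.88, limma adjusted p = 0.00173). YFP+ minus unstimulated was 0.37 and missed the threshold as deposited (limma adjusted p = 0.0652), although no samples overlapped. It was called after centring (0.49), with trimmed-mean scaling (0.50) and with a block for the replicate label (0.37, limma adjusted p = 0.0168). The fit of 8 samples, sample weights, and leaving out the YFP- sample m3 or m4 also brought it past the threshold, at limma adjusted p of 0.0485, 0.0463, 0.0465 and 0.0408. These were 7 of 29 alternatives run, and the difference missed the threshold in the rest. Over all of them it ranged from 0.18 to 0.50.

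Btg2 (ENSMUSG00000020423, chromosome 1, 134075170 to 134079120, minus strand) was at 112, 118, 109.5 and 133 CPM in unstimulated samples f2, m2, m3 and m4. The YFP- samples were at 242, 305, 191 and 249 CPM and the YFP+ samples at 193, 142, 124 and 119 CPM. All YFP- samples were above all unstimulated ones, and the YFP+ sample f2 reached just above the lowest YFP- sample, m3. Btg2 rose by 1.05 in log2 in YFP- relative to unstimulated samples (SE 0.17, limma adjusted p = 0.000186). YFP+ was lower than YFP- by 1.72-fold (log2 difference -0.78, limma adjusted p = 0.00496), a call lost without label m2 (-0.67) or label m4 (-0.68). YFP+ minus unstimulated was 0.27 (limma adjusted p = 0.182). It was called in 2 of 29 alternatives, after centring (0.39) and with sample weights (0.33), and ranged from 0.08 to 0.41 over them all.

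Tob1, the third antiproliferative gene, was low throughout. It (ENSMUSG00000037573, chromosome 11, 94211454 to 94215495, plus strand) was at 3.12, 2.55, 3.59 and 3.85 CPM in unstimulated samples f2, m2, m3 and m4, at 2.14, 2.94, 2.28 and 1.41 CPM in YFP- samples and at 2.04, 2.30, 2.24 and 2.18 CPM in YFP+ samples. The YFP+ samples lay close together and below the unstimulated range, while the YFP- sample m2 lay inside that range and sample m4 below all others. Tob1 fell by 0.61 in YFP- (SE 0.23, limma adjusted p = 0.0384) and by 0.56 in YFP+ (limma adjusted p = 0.0456), both relative to unstimulated samples. These calls were the least stable of the 10 genes: 14 of 28 alternative settings removed the first and 20 of 28 the second, a block for the replicate label among both. The stimulated groups differed by 0.05 (SE 0.23, limma adjusted p = 0.909).

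Il7r encodes the alpha chain of the IL-7 receptor, a known FOXO1 target in T cells and a marker of innate lymphoid cells other than conventional NK cells. It (ENSMUSG00000003882, chromosome 15, 9505788 to 9530176, minus strand) was counted with 76, 30, 30 and 80 reads in unstimulated samples f2, m2, m3 and m4, or 1.99, 0.789, 0.753 and 2.47 CPM. The YFP- samples held 75, 76, 47 and 57 reads, or 1.69, 1.54, 1.08 and 1.16 CPM. In YFP+ samples f2, m2 and m4 held 0 reads and m3 held 6, or 0.166 CPM. A count of 0 allows up to 0.0613, 0.0553 and 0.0933 CPM in those 3 libraries, below every sample of the other groups.

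Pooled over samples, Il7r had 216 reads in unstimulated, 255 in YFP- and 6 in YFP+ libraries. The pooled level was 39.2-fold higher in YFP- than in YFP+ (exact 95% interval 17.8 to 108, counting error only), and 41.6-fold higher in unstimulated than in YFP+ (18.8 to 115). All 6 reads came from sample m3, so both folds depend on that library. Without it, a setting chosen after seeing the data, the YFP+ libraries held 0 reads, and against 3 reads over the group the level was at least 61.8-fold higher in YFP- and at least 65.6-fold higher in unstimulated samples. In limma, YFP+ minus YFP- was -5.83 (SE 0.79, adjusted p = 0.000205) and YFP+ minus unstimulated was -5.79 (adjusted p = 2.55e-05), sizes that depend on the small number added to 0 reads. With 1 CPM added they were -1.18 and -1.20, and both were still called. YFP- minus unstimulated was 0.04 (SE 0.79, limma adjusted p = 0.972) with overlapping samples. Il7r passed the filter through 4 YFP- and 2 unstimulated samples only, so its presence among the genes tested depended on the groups in which it was high. With no filter, over all 55487 features, YFP+ minus YFP- had a limma adjusted p of 0.00562 and YFP+ minus unstimulated one of 0.000921.

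Marker genes of other innate lymphoid cells had their own pattern. The 11 genes of that list summed to 88.8 to 115 CPM in unstimulated, 134 to 178 CPM in YFP- and 28.5 to 70.0 CPM in YFP+ samples. In YFP- relative to unstimulated samples, where the Il7r difference was 0.04, 3 of the 5 tested (Cd200r1, Cxcr6 and Areg) were higher and 2 (Tmem176a and Tmem176b) lower, beside 30.2% and 20.9% of all genes. Areg averaged 0.0194 CPM in unstimulated samples and passed the filter through stimulated samples only, so its own call supports no count. Between the stimulated groups, 4 of the 5 (Cd200r1, Cxcr6, Tmem176a and Tmem176b) were lower in YFP+, by -2.62, -1.54, -2.28 and -2.67 in log2, beside 18.5% of all genes.

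The other members of that list differed in level and direction. Il13 was at most 0.115 CPM, Il22 at most 0.122 CPM and Il23r at most 0.184 CPM in any sample. Areg, a growth factor gene, averaged 0.0194 CPM in unstimulated, 2.64 CPM in YFP- and 2.20 CPM in YFP+ samples. Il1rl1, the IL-33 receptor gene, failed the filter and was highest in YFP+ samples, at 0 to 0.185, 0.158 to 0.507 and 0.871 to 1.88 CPM in the same order. The T cell marker Cd3e, also below the filter, had a pattern of levels near that of Il7r, with means of 0.529, 0.915 and 0.0363 CPM beside 1.5005, 1.37 and 0.0414 CPM for Il7r. The part of either cell type in the Il7r result was not tested.

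Levels of different genes can be set beside each other only per length, here as CPM per kb of annotated exons. In unstimulated samples the order was Btg2 at 43.0 ± 3.78 (SD, n = 4), Btg1 at 29.3 ± 2.62, Txnip at 19.2 ± 2.81 and Tsc22d3 at 13.9 ± 4.41 CPM per kb. Pik3ip1 (3.82 ± 0.11), Foxo1 (3.44 ± 0.15) and Foxp1 (3.26 ± 0.35) followed, of which Foxo1 and Foxp1 differed by less than their spread. Foxo3 (1.72 ± 0.25) and Tob1 (1.43 ± 0.25) lay within about their SD of each other, and Il7r was last at 0.322 ± 0.185 CPM per kb.

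In YFP+ samples Btg2 (52.7 ± 12.4 CPM per kb) and Btg1 (38.1 ± 7.33) were still first, with overlapping spread, and Foxp1 (9.84 ± 2.597) had moved to the third place. Tsc22d3 (3.71 ± 1.82), Txnip (3.54 ± 0.57) and Foxo1 (2.56 ± 0.26) came next, and the first 2 of these did not differ beyond their spread. Tob1 was at 0.958 ± 0.048, Foxo3 at 0.318 ± 0.040, Pik3ip1 at 0.235 ± 0.080 and Il7r at 0.00889 ± 0.0178 CPM per kb. Foxo1 thus held 8.06 times the level of Foxo3 per length in YFP+ samples and 1.99 times in unstimulated samples, ratios of group means given as a description.

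The place of YFP- cells between the other groups varied among the genes, on a scale where 0 is the unstimulated mean and 1 the YFP+ mean in log2 CPM. It is given for the 8 genes called between unstimulated and YFP+ samples, as the mean and SD over the 4 YFP- samples and with no test. Il7r was at -0.007 ± 0.053, Tsc22d3 at 0.26 ± 0.13, Txnip at 0.34 ± 0.21 and Foxo1 at 0.42 ± 0.52. Pik3ip1 was at 0.51 ± 0.15 and Foxo3 at 0.66 ± 0.06, while Foxp1 (0.90 ± 0.24) and Tob1 (1.08 ± 0.78) were close to the YFP+ level. Foxo1 and Tob1, whose total changes were small, had the widest SD. For Il7r all YFP+ libraries but m3 held 0 reads, so the scale of its place and SD depends on the small number added to 0 reads.

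Across the 12 samples, which share the group structure, Pearson correlations of log2 CPM describe which genes varied alike. Pik3ip1 and Foxo3 were the closest pair among the 10 (0.954), followed by Pik3ip1 with Txnip (0.940). Foxp1 ran opposite to Foxo3 (-0.912), and Btg1 was closest to Btg2 (0.838). Among 8146 other genes compared, the nearest were Rab9 for Pik3ip1 (0.990), Arl6ip5 for Txnip (0.992) and Limk2 for Tsc22d3 (0.992). The nearest to Foxp1 was St6galnac4 (0.993), to Foxo1 Fam193a (0.975), to Btg2 Mfsd6 (0.965), to Il7r Tent5a (0.967) and to Tob1 Usp30 (0.892). The Il7r correlation includes YFP+ libraries with 0 reads, whose log2 CPM is set by the small number added.

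The effect of scaling on YFP+ minus YFP- was examined for each gene. Txnip stayed between -1.62 and -1.35, Pik3ip1 between -2.01 and -1.60 and Tsc22d3 between -1.49 and -1.22 under the 4 other scalings. Btg1 stayed between -0.89 and -0.62 and Btg2 between -0.79 and -0.52. Each of these values was called, and of the 7 calls between the stimulated groups only Foxo3 was lost under any of these scalings. For YFP+ minus unstimulated, centring gave 9 called genes (3 higher, 6 lower), since Btg1 and Btg2 were added and Tob1 was lost, in place of 8 (1 higher, 7 lower).

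**Figure D3:**
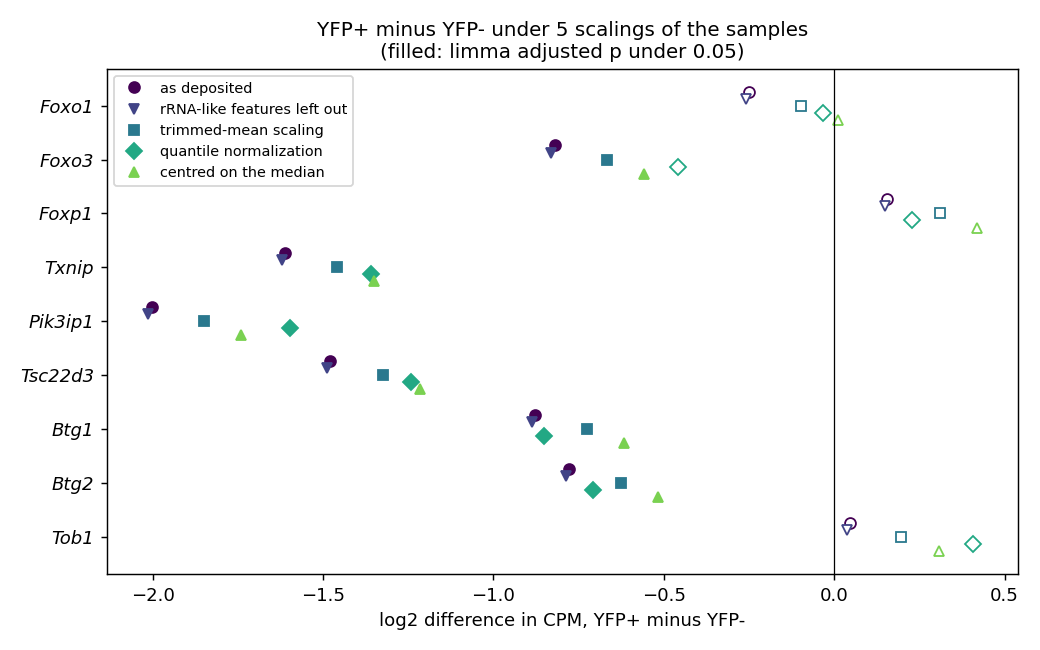
YFP+ minus YFP- in log2 CPM (x axis) for 9 of the 10 genes under the deposited scaling and 4 others (symbols; filled symbols have a limma adjusted p under 0.05). Il7r is left out because its value lies off the axis; Foxo1 crosses 0 under centring, and the Foxo3 symbol is open only for quantile normalization.

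Genes upstream of FOXO proteins were examined as a list of 26 genes of PI3K, AKT and mTOR signalling, all tested. In YFP- relative to unstimulated samples 4 were higher and 10 lower, beside 30.2% and 20.9% of all genes. These 14 of 26 stand beside 51.1% called over all genes. The median was -0.30, beside 0.14 over all genes. Pik3ap1, an adaptor of PI3K, fell by 1.90 and Rheb, the GTPase that activates mTORC1, rose by 1.48 (limma adjusted p of at most 3.7e-06). In YFP+ relative to YFP- samples 2 were higher and 8 lower, beside 3.28% and 18.5% of all genes. The median there was -0.29, beside -0.19. Inpp4b, a phosphoinositide phosphatase, fell by 1.74 and Phlpp1, a phosphatase of AKT, rose by 1.08. Relative to unstimulated samples YFP+ had 4 higher and 15 lower, beside 27.5% and 33.3% of all genes. The catalytic subunit gene Pik3cg fell by 2.85 (limma adjusted p = 2.42e-07).

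Other forkhead relatives were mostly below the filter, with 2 of 5 tested. Foxo4 did not change with stimulation in YFP- (0.14, limma adjusted p = 0.695) and was lower in YFP+ than in YFP- (-1.38, limma adjusted p = 0.00351), at 0.731 against 1.86 CPM. Foxp4, like its relative Foxp1, rose in YFP- (1.91, limma adjusted p = 1.46e-05) and in YFP+ (1.30), relative to unstimulated samples.

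A list of 25 other genes known to be regulated by FOXO factors, of which 24 were tested, was examined next. In YFP- relative to unstimulated samples 8 were higher and 7 lower, beside 30.2% and 20.9% of all genes, with a median of 0.28, beside 0.14. In YFP+ relative to YFP- samples 0 were higher and 11 lower, beside 3.28% and 18.5%, with a median of -0.71, beside -0.19, and centring gave 3 higher and 9 lower. Trib2 was at most 0.664 CPM in YFP+ samples and passed the filter through the other groups only, so its own difference supports no count. Klf2, which maintains lymphocyte homing, fell by 1.24 at the first step and by a further 1.39 at the second (limma adjusted p of at most 0.00025). Cdkn1b, the cell cycle inhibitor p27, fell by 1.196 at the first step and by 0.95 at the second. S1pr1 did not pass the filter.

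Not all known FOXO targets fell. Bcl2l11, which encodes the death inducer BIM, rose by 1.92 in YFP- relative to unstimulated samples (limma adjusted p = 1.91e-07) and was lower in YFP+ than in YFP- (-1.05, limma adjusted p = 0.000135), so that its mean, like those of Btg1 and Btg2, was highest in YFP-. Gadd45b, a stress response gene, rose by 4.48 in YFP- and Trib1 by 4.04 in YFP+, each relative to unstimulated samples. Trp53inp1 fell by 0.98 in YFP- and was at -2.63 in YFP+ minus YFP- (limma adjusted p = 1.03e-05), the largest fall of the list.

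Among 20 other quiescence and stem-like factors, all tested, 5 were higher and 10 lower in YFP- than in unstimulated samples. Over all genes 30.2% were higher and 20.9% lower, and the list median was -0.38, beside 0.14. In YFP+ relative to YFP- samples 1 was higher and 14 were lower (70.0% of the list), beside 3.28% and 18.5% of all genes. The median there was -0.84, beside -0.19 over all genes. The all-gene balance depended on scaling, with 405 higher and 2286 lower as deposited and 1505 and 1491 after centring. Tcf7, which encodes the transcription factor TCF1, had the largest fall of the list (-2.80, limma adjusted p = 3.2e-06), from 28.3 to 3.97 CPM. The BTG family member Btg3 was the 1 higher gene (0.59, limma adjusted p = 0.0463). Relative to unstimulated samples YFP+ had 2 higher and 17 lower, beside 27.5% and 33.3% of all genes. The cell cycle inhibitor Cdkn2d was at -3.50 and the repressor Zeb2 at 2.72. Tob2, the closest relative of Tob1, rose by 0.80 in YFP- and was not called in the other comparisons.

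Partners of BTG and TOB proteins and other genes that shorten, lengthen or bind poly(A) tails were examined as a list of 16, all tested. Between the stimulated groups 1 was higher and 2 lower in YFP+ than in YFP-, the CCR4-NOT subunit gene Cnot11 at 0.55, the deadenylase gene Cnot6l at -0.91 and Tent5a, a polymerase that adds tails, at -1.84. Over all genes 3.28% were higher and 18.5% lower in that comparison. Centring gave 3 higher and 2 lower in the list. In YFP- relative to unstimulated samples 3 were higher and 4 lower, among them Cnot7, a catalytic deadenylase that BTG proteins bind, at 0.70. These 7 of 16 stand beside 51.1% of all genes.

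Beside Txnip and Tsc22d3, 19 arrestin-domain and glucocorticoid-related genes were examined. Of these, 7 were higher and 7 lower in YFP- than in unstimulated samples, with a median of -0.18, beside 51.1% called and a median of 0.14 over all genes. In YFP+ relative to YFP- samples 0 were higher and 9 lower, with a median of -0.49, beside 21.8% called and a median of -0.19, and centring gave 5 and 5. Nr3c1, the glucocorticoid receptor gene, fell by 0.45 at the first step and by 0.70 at the second. The transcription factor gene Zbtb16 had the largest fall in YFP+ relative to YFP- (-1.54, limma adjusted p = 0.000905). Zbtb16 was at most 0.747 CPM in YFP+ samples and passed the filter through the other groups only, so its own call supports no count. The Txnip relatives Arrdc3 and Arrdc4 differed at the first step, -0.59 against 1.22, and were both lower in YFP+ than in YFP- (-0.89 and -0.93). The Tsc22d3 relative Tsc22d1 rose by 2.99 in YFP- while Tsc22d4 fell by 0.84, relative to unstimulated samples.

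Of 14 genes of IL-7 receptor signalling, 5 were higher and 4 lower in YFP- than in unstimulated samples, with a median of 0.19, where 51.1% of all genes were called and their median was 0.14. In YFP+ relative to YFP- samples 0 were higher and 6 lower, with a median of -0.37, where 21.8% of all genes were called and their median was -0.19, and centring gave 2 and 2. Il2rg, the common gamma chain that pairs with the product of Il7r, rose by 1.06 in YFP-. Jak3, the kinase bound to that chain, fell by 1.58 at the first step and by 0.92 at the second (limma adjusted p of at most 0.005). Stat5a, a transcription factor gene of the list, rose by 3.02 in YFP- (limma adjusted p = 2.2e-08), from 9.31 to 75.8 CPM. Bcl2, a survival gene of the list, was at 0.06 in YFP- minus unstimulated and at -0.87 in YFP+ minus YFP-. These genes are not particular to the IL-7 receptor. All groups were primed with IL-15, and the part of either cytokine was not tested.

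**Figure D4:**
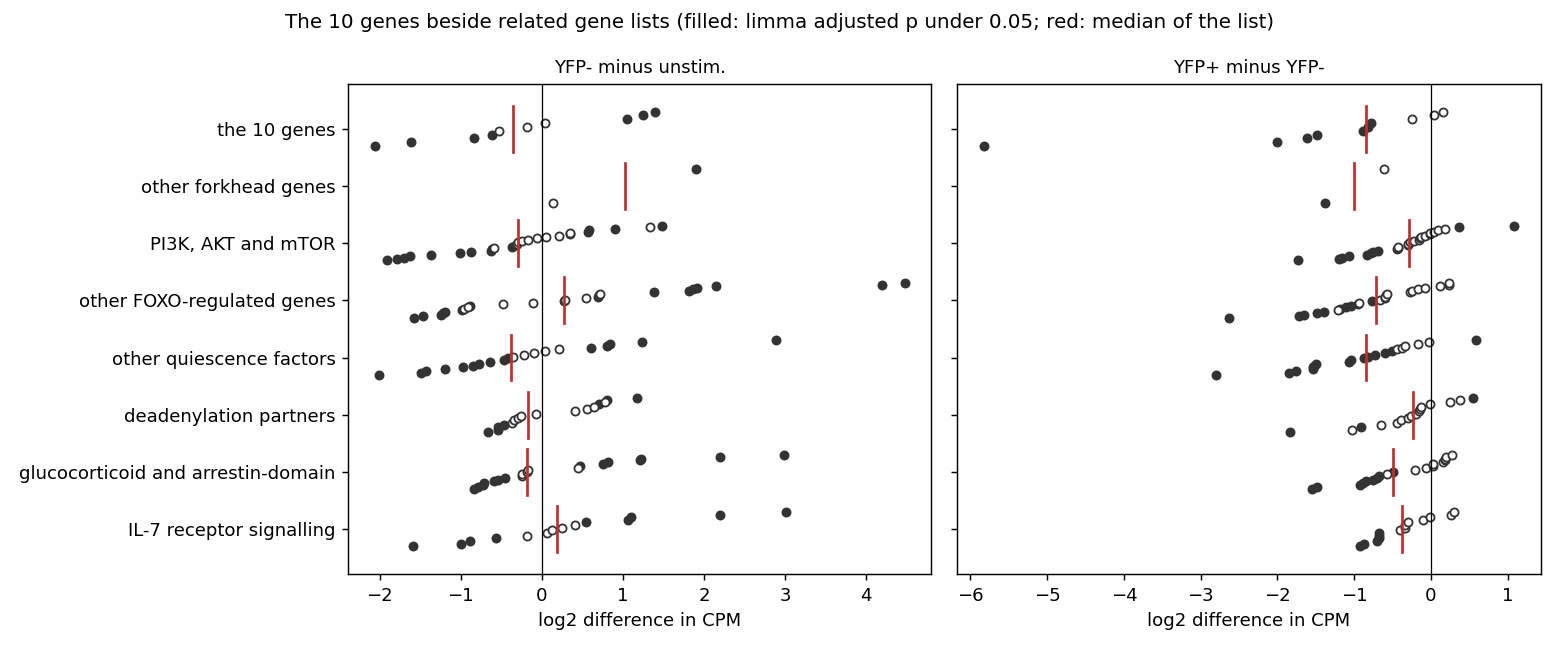
Log2 differences in CPM (x axis) of the 10 genes and of the tested genes of 7 related lists, for YFP- minus unstimulated and YFP+ minus YFP- (each point is a gene, filled at a limma adjusted p under 0.05, red lines are list medians). In YFP+ minus YFP- the medians of the 10 genes and of the other quiescence factors lie at -0.85 and -0.84, and that of the poly(A) tail genes (deadenylation partners) at -0.23.

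Lists of NK and T cell markers also moved between the groups. Of 12 NK cell markers 2 were higher and 8 lower in YFP- than in unstimulated samples, beside 30.2% and 20.9% of all genes. Between the stimulated groups 1 was higher and 6 lower in YFP+, beside 3.28% and 18.5%. Klrb1c, which encodes the antigen bound by the stimulating antibody, was at -3.59 in YFP+ minus YFP-. The 9 T cell markers summed to 125 to 174 CPM in unstimulated, 169 to 268 CPM in YFP- and 235 to 349 CPM in YFP+ samples. Cd28 alone was at 61.3 to 260 CPM. Of 4 T cell markers tested, 2 (Trac and Cd28) were higher and 2 (Cd3g and Cd3d) lower in YFP+ than in unstimulated samples, at 2.697, 1.42, -1.22 and -0.77. Over all genes 27.5% were higher and 33.3% lower. Trac rose at both steps (2.19 and 0.51), and mean Cd3g was 47.9, 32.5 and 20.6 CPM in unstimulated, YFP- and YFP+ samples. The part of these markers in the differences of the 10 genes was not tested.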

How the data were processed

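RNA-seq of 12 samples was analysed from 1 table of moderated log2 CPM that the authors deposited, with gene identifiers and symbols per the file headers; the submitters' processing notes name GRCm38, bcl2fastq, STAR 2.7.9a, Subread and featureCounts 2.0.3, with no role or order. Libraries started from 10 ng of RNA and the SMARTer Ultra Low kit, per the labels' protocols. Of 55774 lines, 287 repeated lines were dropped, and 0 per-sample columns belonged to no sample. Whole reads were recovered from the log2 values for 100% of them (largest difference from the formula 5.15e-14) and used for read counts, CPM and floors of 3 reads. Library totals of 32.1 to 54.2 M reads set the precision.

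The members and gene lists were chosen with earlier results of these data known. The 12364 genes above a log2 CPM of 0 in 4 or more samples were fitted with limma 3.58.1 (R 4.3.3; lmFit, contrasts, eBayes with trend) over 12 samples, 1 coefficient per group, with Benjamini-Hochberg adjusted p under 0.05 as the threshold. The fit was tested on simulated reads. Beside the 10 members, the genes named are, per list and comparison, the called gene with the largest rise and fall, close relatives of members, Ifng and Klrb1c as label checks, and for each member the gene with the highest Pearson correlation (mean log2 CPM of at least 2). A few genes under this rule are not reported here. Genes named beyond that rule (Arrdc3, Arrdc4, Nr3c1, Tsc22d1, Tsc22d4, Cnot6l, Cnot7, Il2rg, Bcl2, Trib2, Trp53inp1 at the first step and single markers) were chosen after their values were seen. Gene positions and exon lengths come from GENCODE M21, which held 99.5% of the identifiers, and promoter windows from RefSeq GRCm38.p6. Alternatives were a replicate block, a fit limited to 8 samples, dropping the filter or raising it to a log2 CPM of 2, 1 CPM as pseudocount, 4 other scalings (centring, quantile, trimmed-mean, 359 rRNA-like features left out), no trend, sample weights, stricter thresholds, and each label or sample left out. Other steps ran in Python 3.11.15 (pandas 2.3.3, matplotlib 3.10.9, scipy 1.17.1, numpy 2.4.6).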

Additional observations from a re-analysis of the deposited data

Results flagged for a closer look

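In 30 sets of 4 values, 1 for each of the 10 genes in each group, the highest or lowest sample stood apart from the other three in 2, by a gap past Dixon's 95% limit relative to the group's range, where 1.5 such sets would be expected by chance.

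Btg1 in YFP+ samples had m4 highest, with a gap of 0.974 of the range, at a log2 CPM of 8.02 against 7.50 to 7.51 in the other three samples, all from at least 6548 reads. Il7r in YFP+ samples had m3 highest, with a gap equal to the whole range (ratio 1), from 6 reads against 0 in each other library. With the other libraries tied at 0 reads, any count above 0 gives this ratio, so the Il7r flag supports no count.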

How the results depend on the processing

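Of the 30 log2 differences of the 10 genes, 14 kept direction and side of the threshold under each of the alternatives run. Over 863 values, 789 did so, 48 lost the threshold, 13 gained it and 13 reversed. For YFP+ minus YFP- the 7 calls became 4 when a log2 size of at least 1 was also required (by construction), and no other alternative moved the number of called genes by over 1.5 times in any comparison. Reversed values were those of differences near 0. Foxo1 in YFP+ minus YFP- was 0.013 after centring. Il7r in YFP- minus unstimulated was -0.0198 with 1 CPM added, -0.10 after centring and -0.14 with rRNA-like features left out, and -0.26 to 0.41 over the fits that left out a label or sample. Foxp1 and Tob1 in YFP+ minus YFP- ranged from -0.025 to 0.34 and from -0.15 to 0.20 over the same fits. The cause of these was not tested.

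The replicate label added as a block (replicate block) gave 7, 6 and 8 called genes for YFP+ against YFP-, YFP- against unstimulated and YFP+ against unstimulated. Tob1 lost both of its calls and Btg1 gained one (0.37, YFP+ minus unstimulated). The labels do not say what a number shares, and same-label correlations of sample deviations were 0.05 to 0.37, -0.06 to 0.10 and -0.04 to 0.38 in the same order, so the block was not used in the main result; 6, 2 and 4 of 8 samples correlated best with their own label.

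The all-gene median moved with scaling from -0.20 to 0.07, -0.06 to 0.14 and -0.23 to 0.10 in the same order. Calls for all genes, 2691 (405 higher, 2286 lower), 6321 and 7522, became 1256, 3239 and 4547 when a log2 size of 1 or more was also required, 1466 for the first at an adjusted p under 0.01, 1583 without a filter, 1526 without label m2, 1583 without label m4, and 1505 higher and 1491 lower for the first after centring. Depth limits Il7r (0 to 6 reads in YFP+) most.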
